A study of Rattus norvegicus with 9 samples.

Results

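Clusterin (Clu), the metalloproteinase inhibitor Timp1 and Krt8, Krt18 and Krt19, keratins of simple epithelia, are 5 genes that injured kidney tubules are known to raise. They were chosen by name, with earlier results of these data known, and make up 5 of the 18420 genes in the table. Messenger RNA came from the kidney cortex of ZDF fa/fa rats, an obese strain in which both copies of the leptin receptor gene carry the fa mutation, and all samples were from diabetic animals per the labels. All 9 libraries carry the treatment label Medical Bypass and form 1 group, with no untreated, operated or lean animals analysed here, so nothing below is an effect of the treatment. The labels give no drug, dose, time, age or batch, and are silent on whether each of the 9 replicates is its own animal. Every p-value therefore rests on a spread between samples that could be technical.

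Clusterin is a secreted chaperone that binds misfolded proteins and clears them through lipoprotein receptors, and its transcript is a long-used marker of stressed and dedifferentiated tubule cells. Timp1 blocks matrix metalloproteinases and so slows the breakdown of extracellular matrix, and both interstitial cells and injured epithelium make it. Keratin filaments are built from pairs of a type II and a type I keratin. Krt8 is the type II partner in simple epithelia, and Krt18 and Krt19 are type I partners. In the healthy cortex these keratins belong mainly to the collecting duct, distal tubule and glomerular parietal epithelium, and injured proximal tubule cells gain them.

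Reads in genes numbered from 10757440 in replicate 3 to 43071223 in replicate 8. Each level below is the number of reads of a gene after division by a size factor for its library. It is not corrected for gene length, so levels are compared between replicates and never between genes. In whole cortex, fewer cells of a type and less RNA per cell cannot be told apart.

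Clu was present in every library at 3649 to 22337 reads. Its level was lowest in replicate 3 at 7264, had a median of 10157 in replicate 9 and was highest in replicate 5 at 13475, a 1.86-fold range. Replicates 2 and 6 were the next lowest at 7648 and 8821, and replicate 8 was the next highest at 12149. The values formed a continuous range with no separate set of high libraries. The mean was 10225 ± 2053 (SD, n = 9), an SD of 20.1% of the mean, while counting error alone gave at most 1.66%.

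Timp1 was read far more thinly, with 57 reads in replicate 3 and 344 in replicate 8. Its level was lowest in replicate 2 at 102, had a median of 138 in replicate 7 and was highest in replicate 5 at 199, a 1.96-fold range. Replicates 8 and 1 stood next to the top at 187 and 167, and replicate 3 next to the bottom at 113. The mean was 145 ± 33.8 (SD, n = 9), an SD of 23.4% of the mean, against a counting error of 7.86% in the median library and 13.2% in the shallowest. In the RefSeq annotation of GRCr8, Timp1 overlaps Syn1, a neuronal synapsin gene on the opposite strand. The counting's strand setting is not given in the sources used here, and Syn1 itself stood at 5.97 to 13.2.

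The promoter of Timp1 is shown because AP-1, which also acts on keratin genes, is a well known activator of it. RefSeq entries (GRCr8) were matched for 3 of the 5 genes, Timp1, Krt8 and Krt18. The stretch upstream of the Timp1 start is chrX:3771123-3771372 on the minus strand, with capitals on a GC box in reverse orientation and on TGAGTAA, a variant of the AP-1 consensus.
Timp1: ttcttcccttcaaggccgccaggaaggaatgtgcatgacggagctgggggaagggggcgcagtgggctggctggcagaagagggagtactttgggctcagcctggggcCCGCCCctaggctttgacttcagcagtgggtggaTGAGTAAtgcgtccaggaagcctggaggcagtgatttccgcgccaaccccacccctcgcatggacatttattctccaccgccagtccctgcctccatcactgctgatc
The TGAGTAA match begins 108 bases before the start and the CCGCCC match 142. Searched on both strands over the 250 bases upstream of 33469 rat promoters, TGAGTAA occurred in 2.38%, the AP-1 consensus TGANTCA in 6.34%, and the GC box GGGCGG in 30.5%. The Timp1 stretch held neither TGANTCA nor the STAT motif TTCNNNGAA, which 7.67% of promoters held. A match describes the letters and is no evidence of binding.

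Krt8, the type II keratin, varied least of the keratins. Its level was lowest in replicate 6 at 3804, had a median of 4812 in replicate 9 and was highest in replicate 8 at 6452, a 1.70-fold range around a mean of 5171 ± 1024 (SD, n = 9). Replicate 3 was next to the top at 6436, the same library that held the lowest Clu. Krt8 reads numbered 3233 to 11862, so counting error was at most 1.76%.

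Krt18, a type I partner of Krt8, varied most. Its level was lowest in replicate 2 at 266, had a median of 572 in replicate 1 and was highest in replicate 7 at 1019, a 3.84-fold range around a mean of 581 ± 251 (SD, n = 9). Replicates 2, 3 and 4 were the lowest at 266, 338 and 380, and replicates 7 and 8 the highest at 1019 and 871. Reads numbered 170 to 1601, and the SD of 43.2% of the mean compared with a counting error of at most 7.67%.

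Krt19, the other type I keratin and the one that lacks a tail domain, ranged 2.24-fold. It was lowest in replicate 2 at 115, had a median of 194 in replicate 7 and was highest in replicate 1 at 257, with a mean of 192 ± 42.3 (SD, n = 9). From 88 to 356 reads lay behind each value, a counting error of at most 10.7%. Replicate 1, at the top for Krt19, was at the median for Krt18 and below the median for Krt8.

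**Figure D1:**
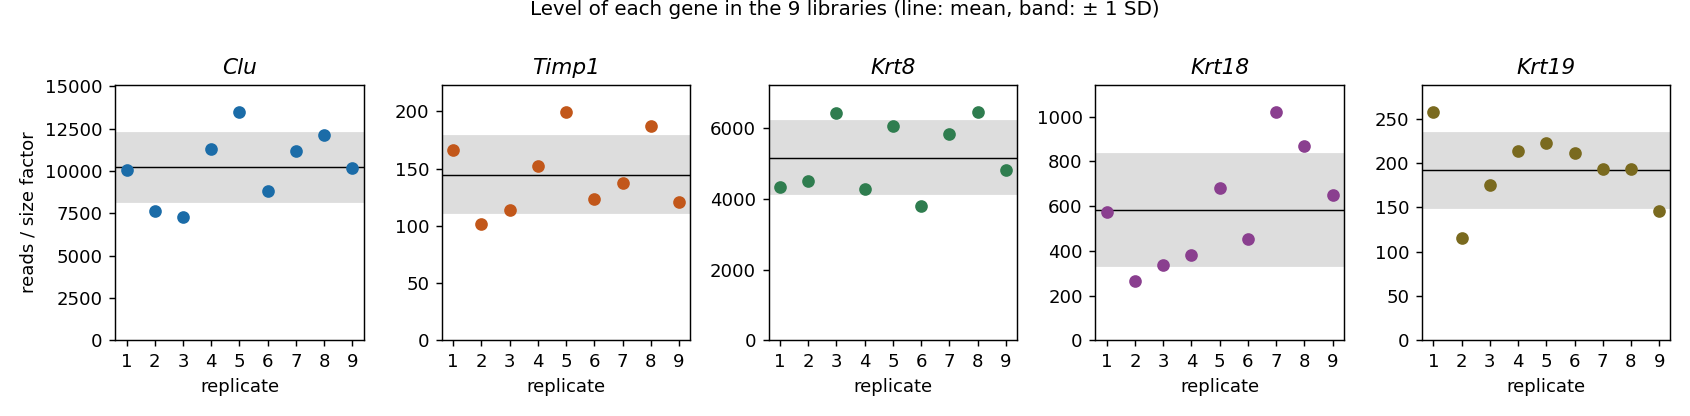
Level of each of the 5 genes (reads divided by size factor, vertical axis from 0) in replicates 1 to 9 (horizontal axis), 1 panel a gene, with the mean as a line and 1 SD as a band. Replicate 5 is highest for Clu and Timp1, replicate 8 for Krt8, replicate 7 for Krt18 and replicate 1 for Krt19, while replicate 2 is lowest for Timp1, Krt18 and Krt19.

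Whether any of the 5 genes differed between replicates more than genes of like level was tested with limma, as the ratio of a gene's variance to the trend of variance on level. Over 13647 genes with a mean of at least 10, all 5 included, 0% (0 genes) passed after adjustment, while the unadjusted p was under 0.05 for 573. Krt18 had a ratio of 5.43, above 95.9% of genes, with an unadjusted limma p of 0.0485 and an adjusted p of 0.957. Clu at 1.23, Krt8 at 1.23, Krt19 at 1.06 and Timp1 at 0.866 lay near the median ratio of all genes, 1.11. The spread of Clu, Timp1, Krt8 and Krt19 was thus that of an ordinary gene in these libraries, and that of Krt18 was wider without passing the adjusted test.

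Krt8 and Krt18 lie close together on chromosome 7, in opposite orientations, with 1 annotated locus between them in GRCr8. Their upstream stretches are shown because the products pair in 1 filament while the transcripts did not keep a fixed ratio. For Krt8 the stretch is chr7:135010415-135010589 on the minus strand, with the TATA box TATAAA, overlapped by its match on the other strand, in capitals. For Krt18 it is chr7:135035918-135036167 on the plus strand, with the GC box GGGCGG in capitals.
Krt8: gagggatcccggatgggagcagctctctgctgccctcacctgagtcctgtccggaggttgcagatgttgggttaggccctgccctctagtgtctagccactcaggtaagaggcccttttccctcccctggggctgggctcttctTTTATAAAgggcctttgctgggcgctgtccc
Krt18: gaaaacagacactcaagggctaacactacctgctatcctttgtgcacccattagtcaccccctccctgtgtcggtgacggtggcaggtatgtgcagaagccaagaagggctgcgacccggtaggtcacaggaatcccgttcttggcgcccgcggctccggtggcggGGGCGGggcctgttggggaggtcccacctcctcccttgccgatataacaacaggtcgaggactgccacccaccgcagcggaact
TATAAA occurred in 12.9% of the 33469 rat promoters, in the Krt8 stretch and not in that of Krt18. The GC box occurred in the Krt18 stretch and not in that of Krt8, and neither stretch held any of the AP-1 or STAT motifs above. The Krt8 stretch is shorter than the 250 bases searched in all promoters, because the bases nearest the start are left out. The end of the printed letters is therefore not the start of Krt8, and the TATAAA match begins 104 bases before that start. Krt18 has 6 named pseudogenes in the annotation and Krt8 has 1, none of them a row of the table, and whether reads from them were counted for the parent genes was not tested.

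The ratio of Krt8 to Krt18 fell into a wide range. It was 5.72 in replicate 7, had a median of 8.37 in replicate 6 and reached 19.02 in replicate 3, a 3.32-fold span. Replicates 2, 3 and 4 had the highest ratios at 17.0, 19.02 and 11.3, and the other replicates lay between 5.72 and 8.94. The ratio of Krt8 to Krt19 ran from 16.9 in replicate 1 through a median of 30.1 to 39.3 in replicate 2. The ratio of Krt18 to Krt19 stood between 1.79 and 3.05 in replicates 1 to 6 and between 4.46 and 5.26 in replicates 7, 8 and 9. On the log2 scale the ratio of Krt8 to Krt18 averaged 3.25 ± 0.58 and that of Krt8 to Krt19 averaged 4.76 ± 0.46 (SD, n = 9). Without length correction the size of a ratio says nothing about the balance of the proteins, and its change between libraries is the measured quantity.

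**Figure D2:**
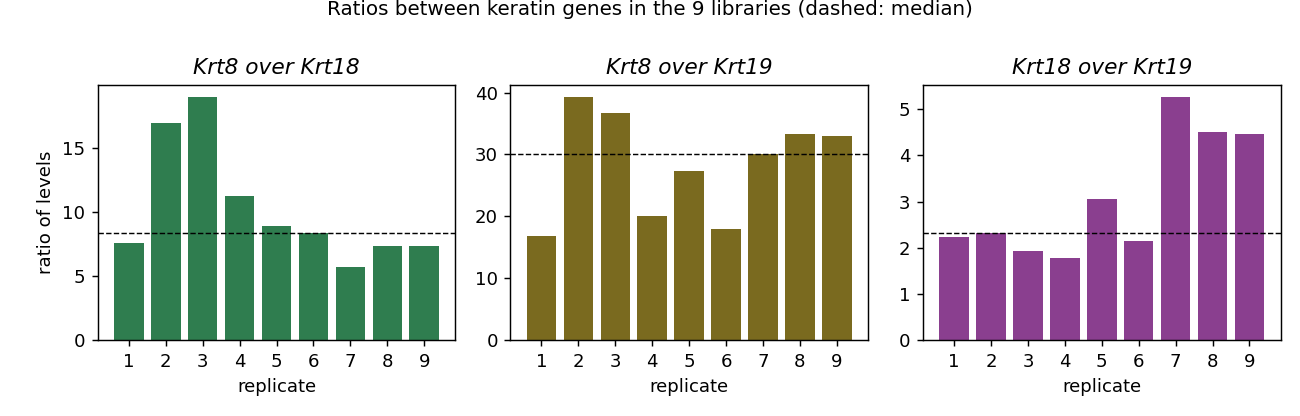
Ratio of levels for Krt8 over Krt18, Krt8 over Krt19 and Krt18 over Krt19 (vertical axes from 0, no units) in replicates 1 to 9, with the median dashed. Krt8 over Krt18 is highest in replicates 2 and 3 at 17.0 and 19.02, and Krt18 over Krt19 is highest in replicates 7, 8 and 9 at 4.46 to 5.26.

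Clu and Timp1 rose and fell together, and the keratins went with them only in part. All 10 pairs of the 5 genes were examined, with Pearson r and Spearman rho on log2 levels, two-sided exact permutation p over all 362880 orders, and a limma slope adjusted over all genes fitted. Of the 10 pairs, 3 passed after adjustment with the first named gene as the predictor, and 1 of these, Clu with Timp1, also passed with the genes exchanged. The slope is the change in log2 level per SD of the first gene's log2 level. The share of all 13646 other genes that passed was 24.9% with Clu and 35.7% with Timp1, so passing with either of them was common in these libraries. It was 0% with each keratin as the predictor, so failing that way round is not particular to a pair.

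Clu and Timp1 had an r of 0.877 (exact permutation p = 0.00240) and a rho of 0.850 (exact permutation p = 0.00607). Replicates 5 and 8 led both genes, and replicates 2 and 3 were the lowest for both. Timp1 rose by 0.29 ± 0.086 (SE) on the log2 scale per SD of Clu (limma adjusted p = 0.0292, and 0.0101 for Clu per SD of Timp1). Without the 2 replicates farthest from the median Clu, replicates 2 and 3, r was 0.798. In replicates 4 to 9 alone it was 0.90 (slope limma adjusted p = 0.0546). The limma adjusted p was 0.0837 without replicate 2, 0.164 without replicate 5, 0.0921 without replicate 8, 0.0858 with equal totals in all libraries and 0.141 with log2 reads in genes as a covariate.

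Clu and Krt18 had an r of 0.749 (exact permutation p = 0.0220) and a rho of 0.717 (exact permutation p = 0.0369). Krt18 rose by 0.48 ± 0.13 (SE) per SD of Clu (limma adjusted p = 0.0224). With the genes exchanged, Clu per SD of Krt18 did not pass (limma adjusted p = 0.218), and no other gene passed with Krt18 either. The relation rested on replicates 2 and 3, which were low in both genes: without them r was 0.422, and in replicates 4 to 9 it was 0.407 (slope limma adjusted p = 0.362). Leaving out replicate 2, 3, 5 or 8 gave a limma adjusted p of 0.0575 to 0.109, and equal totals gave 0.0566.

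Timp1 and Krt19 had an r of 0.730 (exact permutation p = 0.0216) and a rho of 0.767 (exact permutation p = 0.0214), and r was 0.872 without replicates 5 and 8. Krt19 rose by 0.25 ± 0.093 (SE) per SD of Timp1 (limma adjusted p = 0.0476). With the genes exchanged, Timp1 per SD of Krt19 did not pass (limma adjusted p = 0.403), and no other gene passed with Krt19 either. Without replicate 2, the lowest for both genes, the slope was 0.14 (limma adjusted p = 0.237), and in replicates 4 to 9 it was 0.12 (limma adjusted p = 0.409). Among fits with 1 replicate left out, the pair passed only without replicate 6 or 8. With all 9 libraries edgeR gave an adjusted p of 0.0654 and DESeq2 0.0412.

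The other 7 pairs did not pass in limma with all 9 libraries. Timp1 and Krt18 came nearest, with an r of 0.617 (exact permutation p = 0.0800, limma adjusted p = 0.0590), and passed without replicate 4, 7 or 9 at limma adjusted p of 0.0360, 0.0130 and 0.0371. For that pair DESeq2 gave an adjusted p of 0.0441 and edgeR 0.103. The r of Clu with Krt19 was 0.527, of Krt8 with Krt18 0.431 and of Krt18 with Krt19 0.416. Krt8 had an r of 0.325 with Timp1, 0.257 with Clu and -0.0204 with Krt19 (limma adjusted p = 0.435, 0.578 and 0.985). Replicate 3 was lowest in Clu and next to the top in Krt8, and without it the slope of Krt8 on Clu was 0.196 against 0.0739 with all 9 libraries. Without replicates 2 and 3 the r of this pair was 0.828, and in replicates 4 to 9 it was 0.813 (slope limma adjusted p = 0.0494).

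**Figure D3:**
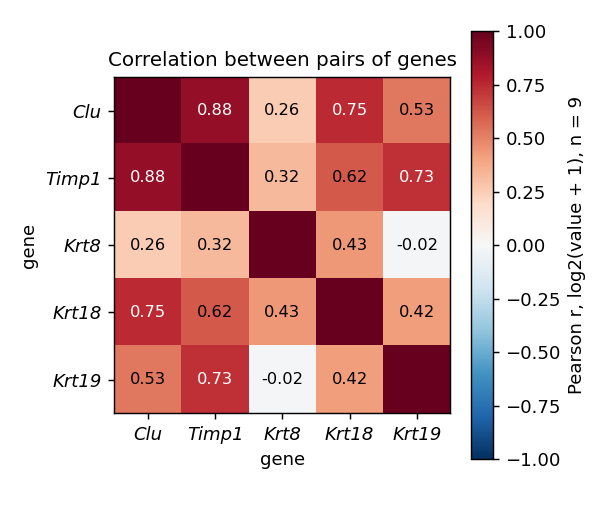
Pearson r of log2 levels for each pair of the 5 genes over the 9 replicates, as a square of genes against genes with colour from -1 to 1. Clu with Timp1 is highest at 0.88, and Krt8 with Krt19 is near 0 at -0.02.

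Measures of the libraries ran with Clu and Timp1. The share of counted reads outside genes was lowest in replicates 5 and 8, at 22.0% and 27.2%, which led both genes. It was highest in replicates 3 and 2, at 31.3% and 31.1%, the lowest for both genes. The fits below used the multi-aligned share, and the share outside genes was not tested. The multi-aligned share, meaning counted reads that aligned to more than 1 place in the genome, was lowest in replicate 2 at 14.9%, had a median of 16.8% in replicate 7 and was highest in replicate 5 at 22.1%. Timp1 had an r of 0.916 with this share (exact permutation p = 0.000105) and a rho of 0.933 (exact permutation p = 0.000750). Without replicates 1 and 5, the farthest from the median share, r was 0.966. Timp1 rose by 0.30 ± 0.079 (SE) on the log2 scale per SD of the share (limma adjusted p = 0.0115), or 0.27 without replicate 5 (limma adjusted p = 0.0539). In replicates 4 to 9 alone its slope was 0.27 (limma adjusted p = 0.0655).

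Clu had an r of 0.778 with the share (exact permutation p = 0.0117) and a rho of 0.783 (exact permutation p = 0.0172). Leaving out replicates 1 and 5 gave an r of 0.858. Its slope was 0.23 ± 0.075 (SE; limma adjusted p = 0.0304), and missed the threshold without replicate 2, 3, 5, 6 or 8, at limma adjusted p of 0.0516 to 0.146, and in replicates 4 to 9 at 0.0613. The keratins did not pass: r was 0.628 for Krt19, 0.482 for Krt18 and 0.352 for Krt8 (limma adjusted p = 0.102, 0.164 and 0.399). Of all 13647 genes, 35% (4774) passed with the share, or 1744 without replicate 5. With the share as a covariate, 0 of the 10 pairs passed, and the slope of Timp1 on Clu was 0.14 (limma adjusted p = 0.733). The part of the share in the relation of Clu to Timp1 was not tested beyond that fit. Reads in genes, on the log2 scale, passed with 0% of all 13647 genes and so with none of the 5. Their r ran from -0.122 for Krt8 to 0.605 for Clu.

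**Figure D4:**
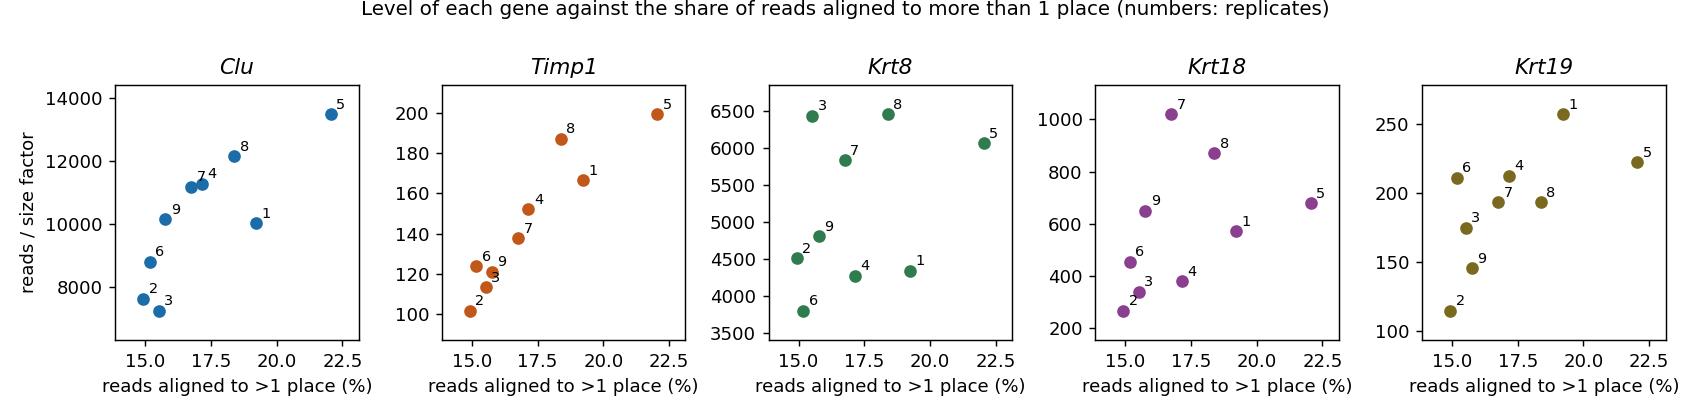
Level of each gene (reads divided by size factor, vertical axis, not starting at 0) against the multi-aligned share (percent, horizontal axis), each point 1 library with its replicate number. Timp1 climbs along the share from replicate 2 at 14.9% to replicate 5 at 22.1% (r = 0.916), and Krt8 shows the loosest relation (r = 0.352).

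In limma with all 9 libraries many genes ran with Clu and Timp1, and none passed with the keratins. With Clu, 1517 genes had a positive and 1879 a negative slope at a limma adjusted p under 0.05, of 13646. Without replicate 5, the highest Clu library, 1 gene passed, and without replicates 7 and 8, each left out alone, 2121 and 1090. With equal totals in all libraries there were 441 positive and 1190 negative slopes. With the multi-aligned share as a covariate 1 gene passed, and with log2 reads in genes as a covariate 0.

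With Timp1, 2311 genes had a positive and 2560 a negative slope. Without replicate 5 there were 476 and 1044, with equal totals 1301 and 1805, and with the share as a covariate 0. The share had an r of 0.916 with Timp1, so a fit that holds both can separate little between them.

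With Krt8, Krt18 and Krt19, limma called 0 genes (0% of 13646 each), and 1144, 2906 and 1453 genes had an unadjusted p under 0.05. edgeR's quasi-likelihood test on whole reads also called 0 for each. DESeq2 called 2 genes with Krt8, 139 with Krt18 and 0 with Krt19. Without replicate 1, limma called 1 gene with Krt18.

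**Figure D5:**
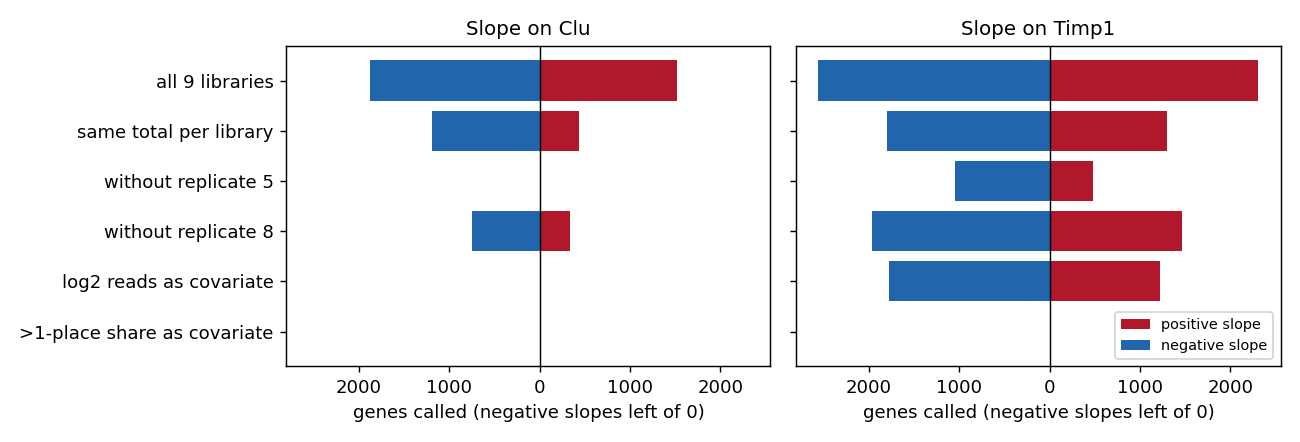
Number of genes with a limma adjusted p under 0.05 for the slope on Clu (left) and Timp1 (right), positive slopes to the right of 0 and negative to the left, under 6 settings listed on the vertical axis. With all 9 libraries the counts are 1517 and 1879 for Clu and 2311 and 2560 for Timp1, and with the multi-aligned share as a covariate they are 1 and 0 for Clu and 0 and 0 for Timp1. The share had an r of 0.778 with Clu and 0.916 with Timp1, which limits what the covariate fits can separate.

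The genes most like Clu across the 9 replicates, ranked by limma's moderated statistic, were Foxs1, Tmem97, Ccl21, Ckb and Atp5f1e, with r from 0.929 to 0.975 (limma adjusted p = 0.0112 each). Foxs1, a forkhead factor of pericytes, stood at 57.7 in replicate 3, a median of 147 and 335 in replicate 5. Ccl21, a chemokine of lymphatic vessels, ran from 179 to 480 and had the highest r of the 5. Ckb is the brain-type creatine kinase and Atp5f1e a subunit of ATP synthase.

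Genes that ran most against Clu were Nr1d2, Tet2 and Fras1. Nr1d2, a repressor of the circadian clock, was highest in replicates 3 and 2 at 1391 and 1244, had a median of 274 and was lowest in replicates 5 and 8 at 74.7 and 94.6. Its log2 level fell by 1.40 ± 0.13 (SE) per SD of Clu (r = -0.958, limma adjusted p = 0.00131). Replicates 1 to 3 lay above all the others in Nr1d2, with replicate 1 at 552 close to replicate 6 at 506. Fras1, a basement membrane protein, and Tet2, an enzyme that oxidises methylcytosine, had r of -0.938 and -0.931.

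The genes most like Timp1 were Ocel1, Hspb1, Pcolce, Wfdc2 and C1qc, with r from 0.927 to 0.957 (limma adjusted p = 0.00140 each). Hspb1, the small heat shock protein of injured epithelium, ran from 385 in replicate 2 through a median of 702 to 1471 in replicate 5. Pcolce, which speeds procollagen processing, ran from 318 to 882, and Wfdc2, the secreted protein HE4, from 1514 to 3998. C1qc, a complement component made by macrophages, ran from 285 to 692. Against Timp1 ran Fnip2, Skil and Fcho2, with r of -0.929 to -0.931. Skil, a brake on TGF-beta signalling, stood at 729 to 987 in replicates 2, 3, 6 and 9 and at 123 to 304 in the others.

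For the keratins the nearest genes are a description, since none passed. Lgals3 and Plin3 had r of 0.921 with Krt18, Ptgs2 -0.903 and Mybl1 -0.898 (limma adjusted p = 0.218 each). Ptgs2, the inducible prostaglandin synthase of the macula densa, was 1187 in replicate 2 and 1071 in replicate 3, where Krt18 was lowest, and 111 in replicate 7, where Krt18 was highest. Krt19 ran nearest to Tppp3, Actg2, Ttc22 and Eln, with r of 0.795 to 0.913 (limma adjusted p = 0.403 each). Tppp3, a tubulin polymerising protein, was 16.3 in replicate 2 and 68.9 in replicate 1, the lowest and highest libraries of Krt19. Krt8 ran nearest to Ccs, Uap1l1, Etfb and Mrps25 and to a row with a clone name, with r of 0.874 to 0.939, and against Rgs5, Tnfrsf11b and Slc34a2 (limma adjusted p = 0.552 each). Ccs loads copper into superoxide dismutase, Etfb is an electron transfer flavoprotein subunit and Mrps25 a protein of the mitochondrial ribosome.

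The counts in the lists below come from these same fits, with all 9 libraries and no covariate. Genes linked to clusterin, its receptors and clients but also Hsf1 and Apoe, were measured as a list of 14 genes, of which 11 were matched and 9 tested. With Clu, 2 of the 9 passed with a positive slope and 0 with a negative one, against 11.1% and 13.8% of all genes, and the median r was 0.554 against 0.0506 over all genes. Those were Bax, the cell-death effector that clusterin is known to restrain (r = 0.827, limma adjusted p = 0.0160), and Hsf1, a heat shock factor known to act on the Clu gene (r = 0.809, limma adjusted p = 0.0250). Bax ran from 559 in replicate 2 to 1396 in replicate 5 and Hsf1 from 404 in replicate 3 to 813 in replicate 5. Apoe, the other major apolipoprotein of stressed cells, had an r of 0.554 with Clu (limma adjusted p = 0.149). With Timp1, 3 of 9 passed with a positive slope against 16.9% of all genes, namely Bax, Hsf1 and Trem2, the macrophage receptor that binds clusterin, which stood at 3.98 to 23.4.

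Inhibitors and metalloproteinases beside Timp1 had a median r with it close to that of all genes. Of 27 genes 22 were matched and 17 tested, and with Timp1 3 passed with a positive and 1 with a negative slope, against 16.9% and 18.8% of all genes, with a median r of 0.0765 against 0.0684 over all genes. Cd63, a cell-surface receptor of Timp1, ranged from 15105 in replicate 2 to 32064 in replicate 5 (r = 0.833 with Timp1, limma adjusted p = 0.0120). The membrane-bound metalloproteinases Mmp15 (r = 0.801, limma adjusted p = 0.0138) and Mmp23 (r = 0.819, limma adjusted p = 0.00943) rose with Timp1. Timp3, the matrix-bound inhibitor, ran the other way: it stood at 4441 in replicate 1 and 4916 in replicate 5, had a median of 8082 and reached 13248 in replicate 6 (r = -0.683, limma adjusted p = 0.0312). Timp2, at 618 to 935, and the gelatinases Mmp2, at 92.8 to 159, and Mmp9, at 34.4 to 112, did not pass. With Clu only Cd63 passed (r = 0.852, limma adjusted p = 0.0177), 1 positive and 0 negative slopes of 17, against 11.1% and 13.8% of all genes.

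Of 17 other keratin genes 10 were matched and 4 had a mean of at least 10. Krt7, the type II keratin of ducts, was lowest in replicate 2 at 2807, had a median of 3766 in replicate 3 and was highest in replicate 5 at 6149. Krt7 was the 1 of these 4 that passed, with an r of 0.784 with Clu (limma adjusted p = 0.0247) and 0.874 with Timp1 (limma adjusted p = 0.00407). Over all genes 11.1% passed with a positive slope with Clu and 16.9% with Timp1. Its r was 0.825 with Krt18, 0.698 with Krt19 and 0.547 with Krt8 (limma adjusted p = 0.218, 0.403 and 0.552), where limma called 0% of all genes. With the multi-aligned share the r of Krt7 was 0.824 (limma adjusted p = 0.00955). Krt80 at 232 to 379 and Krt10 at 31.9 to 63.8 did not pass with any of the 5 genes. Keratins of stratified epithelium were near 0, with Krt14 at 0 to 1.46 and Krt17 at 0 to 2.64.

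Linkers that tie keratin to junctions, with other filament proteins, were called in both directions. Of 23 genes 21 were matched and 19 tested. With Clu, 2 passed with a positive slope (Des, Lmna) and 5 with a negative one (Dsp, Dsg2, Synm, Macf1, Dst), against 11.1% and 13.8% of all genes. With Timp1, 4 passed with a positive slope (Des, Lmna, Vim, Pkp3) and 6 with a negative one (the same 5 genes and Lmnb1), against 16.9% and 18.8%. Dsp, the desmoplakin that anchors keratin at desmosomes, was lowest in replicates 5 and 8 at 1419 and 1516 and highest in replicate 3 at 3093 (r = -0.822 with Clu, limma adjusted p = 0.0163). Dsg2, a desmosomal cadherin, ranged from 42.5 in replicate 5 to 194 in replicate 6 (r = -0.822 with Clu, limma adjusted p = 0.0147). Vim, the vimentin of mesenchymal and dedifferentiated cells, was highest in replicate 1 at 4373 and lowest in replicate 2 at 2080. The median r of the list was -0.126 with Clu and -0.0109 with Timp1.

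Signals that are known to drive Timp1 and Clu, the cytokines of the IL-6 family with STAT3 and AP-1, were called in both directions. Of 24 genes 21 were matched and 17 tested. With Timp1, 3 passed with a positive slope (Cebpd, Tgfb1, Il11ra1) and 4 with a negative one (Lifr, Osmr, Jak1, Il6st), against 16.9% and 18.8% of all genes, and the median r was -0.185. Receptor genes stood on both sides, with Il11ra1 positive and Lifr, Osmr and Il6st negative. Lifr, the LIF receptor, stood at 621 to 1086 in replicates 2, 3, 6 and 9 and at 158 to 314 in the others (r = -0.871, limma adjusted p = 0.00192). Cebpd, a transcription factor that STAT3 induces, ran from 221 in replicate 3 to 968 in replicate 1 (r = 0.826, limma adjusted p = 0.00351). Stat3 itself stood at 3252 to 5111 and Jun at 3339 to 6040, with r of -0.124 and -0.283 with Timp1, not called. With Clu, 1 of the 17 passed with a positive slope (Cebpd) and 3 with a negative one (Lifr, Osmr, Jak1), against 11.1% and 13.8% of all genes.

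Other genes of the injured tubule were called in both directions too. Of 22 genes 21 were matched and 20 tested. With Clu, 6 passed with a positive slope and 2 with a negative one, against 11.1% and 13.8% of all genes, and with Timp1 5 and 3, against 16.9% and 18.8%. The median r was 0.286 with Clu and 0.337 with Timp1. The members positive with both were Lgals3, Anxa2 and the S100 genes S100a6, S100a10 and S100a11. S100a11 ran from 1007 in replicate 3 to 2731 in replicate 5 (r = 0.815 with Clu and 0.880 with Timp1, limma adjusted p = 0.0139 and 0.00206). Cdkn1a, the cell-cycle inhibitor p21, passed with Clu at levels of 117 in replicate 3 to 846 in replicate 5 (r = 0.769, limma adjusted p = 0.0169). Cdh6 and Itgb6, an embryonic cadherin and an integrin of injured epithelium, had negative slopes with both, and Cp, ceruloplasmin, with Timp1.

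Havcr1 and Sox9, named here after their values were seen, had no slope called with any of the 5 genes. Havcr1, which encodes KIM-1, had an r of -0.136 with Clu, -0.215 with Timp1, -0.593 with Krt8, -0.443 with Krt18 and -0.273 with Krt19, none called. Sox9, the repair factor, had an r of -0.839 with Krt18 (limma adjusted p = 0.218). Limma called 0% of all 13646 genes with Krt8, Krt18 or Krt19, and so no gene of these 6 lists.

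Markers of cell types that carry these genes were summed per library, and each r below is a description over 9 libraries that share depth and scaling. The 8 principal cell markers matched, of 10, summed to 12927 in replicate 9, a median of 15847 and 29326 in replicate 1, the library with the highest Krt19 (r = 0.699 with Krt19, 0.356 with Krt18 and -0.0175 with Krt8). The 6 intercalated cell markers matched, of 8, summed to 17336 to 34407, again highest in replicate 1 (r = 0.648 with Krt19). Limma called 0% of all genes with Krt19, and so no single marker of either list. The part of collecting duct content in the Krt19 level was not tested. The 4 parietal cell markers summed to 2889 to 3939, and the sum ran against Krt18 (r = -0.854). Cdh2, at 1020 to 1975, had the highest mean of the 4 and weighed most in the sum on average. Limma called 0% of all genes with Krt18 too, so none of the 4 passed singly. Their median r with Krt18 was -0.374.

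Macrophage markers, 8 of 8 matched, summed to 6103 in replicate 3, a median of 7903 and 9302 in replicate 5, and had an r of 0.778 with Timp1 and 0.710 with Clu. Of the 7 tested, 3 passed with a positive slope with each of Timp1 and Clu (C1qa, C1qb and C1qc), against 16.9% and 11.1% of all genes. Of the others, Csf1r had an r of 0.413 with Timp1 and Adgre1 -0.188, neither called, and Lyz2, at 4527 to 6661, made up most of the sum. C1qb, at 195 to 420, had an r of 0.937 with Timp1 (limma adjusted p = 0.00341). Of 8 principal cell markers tested, 2 passed with Timp1 with a positive slope, Fxyd4 (r = 0.839, limma adjusted p = 0.00353) and Scnn1b (r = 0.664, limma adjusted p = 0.0427). Of 6 intercalated cell markers 1 did, Rhcg (r = 0.772, limma adjusted p = 0.0126). The share of all genes with a positive slope on Timp1 was 16.9%, and the other markers of these 2 lists did not pass. The principal cell sum had an r of 0.567 with Timp1. The part of macrophage or collecting duct content in the Timp1 level was not tested. The 6 fibroblast markers summed to 4604 to 6686, with an r of -0.212 with Timp1 and -0.840 with Krt8. Of these 6, 1 passed with Timp1 with a positive slope, Col1a1 (r = 0.759, limma adjusted p = 0.0206). With a negative slope 1 passed, Pdgfra (r = -0.853, limma adjusted p = 0.00428), against 16.9% positive and 18.8% negative over all genes.

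Urothelium and mesothelium are tissues beside the cortex that are rich in Krt8, Krt18 and Krt19, and some of their defining markers were near 0 while others were measured. Of the urothelium markers, 4 of 6 were matched. Upk2 stood at 0 to 2.33, Upk3a at 0 to 2.60, Upk1b at 3.98 to 20.6 and Upk1a at 5.97 to 42.2. Of the mesothelium markers, 3 of 4 were matched, with Msln at 0 to 4.79, Lrrn4 at 0 to 5.47 and nearly all of the sum in Gpm6a at 786 to 1922. No marker matched was at 0 in all 9 libraries. The cortex itself was plain from the 10 proximal tubule markers, summed at 185042 to 358088, and from the 6 podocyte markers at 11872 to 16225, whose sums had r between -0.345 and 0.555 with the 5 genes.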

How the data were processed

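Kidney cortex RNA from 9 libraries was sequenced from stranded mRNA preparations per the labels' protocols. The deposited signal is a gene's read count divided by a size factor by the authors. Per the submitters' processing notes, HTSeq 0.6.1p1, DESeq2, FastQC 0.11.2, MultiQC 0.9 and the build Rnor_5.0 were used. The aligner is not given in the sources used here. Whole reads were recovered from the deposited signal, where 1 read was worth 0.544 to 1.99 units, and 100% of values lay within 0.1 read of a whole count. The 3 rows that name no gene stayed out of the tests. They included reads outside genes, 22.0% to 31.3% of counted reads.

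The analysis used log2(value + 1) for 13647 genes with a mean of at least 10. Slopes of every gene on the z-score of each of the 5 genes, and variances over the trend, were fitted with limma 3.58.1 in R 4.3.3 with robust empirical Bayes, adjusted by Benjamini-Hochberg over all genes at 0.05. Alternatives used edgeR 4.0.16, DESeq2 1.42.0, TMM, equal totals, pseudocounts, filters, covariates, replicates 4 to 9 and each replicate left out. The count tests of pairs and the fit on the multi-aligned share were added after seeing the data. Scripts were tested on simulated data with 200 changed genes. Library pairs had r of 0.939 to 0.993, so none held identical values.

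The members and the 6 pathway and 13 marker lists were chosen with earlier results of these data known. Of 211 list genes, 176 were matched and 150 tested. Named genes were the 5 nearest and 3 most opposed to each member, the 3 most abundant and every called gene of each pathway list, and the most abundant marker of each cell type, and the values of some are not reported here. Others named from the lists (Timp2, Mmp2, Mmp9, Krt14, Krt17, Csf1r, Adgre1, Upk1b, Upk2, Upk3a, Msln, Lrrn4) were chosen after their values were seen. So were the markers C1qa, C1qb, Fxyd4, Scnn1b, Rhcg and Col1a1, which are named because they passed. Promoter sequences are from RefSeq (GRCr8).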

Additional observations from a re-analysis of the deposited data

Results flagged for a closer look

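In 3 of 60 sets of 9 values tested, a single library stood apart by more than Dixon's 95% critical value of 0.493 for its gap over the range, where chance gives about 1 in 20. None of them was Clu, Timp1, Krt8, Krt18 or Krt19. The summed principal cell markers stood at 29326 in replicate 1, with the next library at 17958, and the summed intercalated cell markers at 34407 in replicate 1, with the next at 24075. Replicate 1 was also the highest library of Krt19. Mybl1, among the genes most opposed to Krt18, stood at 440.5 in replicate 2, the lowest library of Krt18, with the next at 240.5.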

How the results depend on the processing

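Mean levels of the 5 genes moved by less than 1 SD with TMM, with equal totals and with a replicate left out. The 2 keratin ratios were run only with a replicate left out, and also moved by less than 1 SD. Leaving out 1 of 9 values cannot move a mean by 1 SD, so those fits could not have shown otherwise. The variance test called 0 of the 5 genes in each setting where it was run, which left out replicates 4 to 9 and the covariates. With all 9 libraries the lowest limma adjusted p of any gene in that test was 0.957, so 0 calls are not particular to the 5. Genes passing with Clu numbered 3396, and 1631 with equal totals, 1 with the multi-aligned share as a covariate, 0 with log2 reads as a covariate and 1 to 4366 with a replicate left out (lowest without replicate 5). With Timp1 they numbered 4871, and 3106 with equal totals, 0 with the share, 2994 with log2 reads and 1520 to 5056 with a replicate left out. With Krt8 and Krt18, limma gave 0 and DESeq2 2 and 139, and leaving out a replicate gave 0 to 1 with Krt18 (1 without replicate 1). Of the pairs 3 passed (1 with the genes exchanged), and 0 with equal totals, 0 with either covariate, 1 in replicates 4 to 9 (Clu with Krt8, none of the 3) and 0 to 3 with a replicate left out (0 without replicate 2 or 5). The cause was not tested. Pairs that changed sign, none called, were Clu with Krt8 (slope -0.0230 with equal totals, -0.0124 with the share), Krt18 with Krt19 (-0.0573 in replicates 4 to 9, -0.0117 to 0.183 with a replicate left out, below 0 without replicate 2) and Krt8 with Krt19 (0.0011 with log2 reads, -0.0717 to 0.0483 with a replicate left out, above 0 without replicate 1, 3, 4 or 6). TMM moved the median of all genes by 0.14 to 0.17 and equal totals by 0.02 to 0.32 (log2). No paired analysis was possible because the labels give 1 group only. Timp1 and Krt19 had as few as 57 and 88 reads in a library, which limits small differences.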
